A study of Homo sapiens with 18 samples.

Results

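C/D box small nucleolar RNAs (snoRNAs) were followed across 18 arrays of HEK293, a line from human embryonic kidney, engineered to overexpress murine TLR5, which senses bacterial flagellin. The 44 members described here were chosen by the deposited values: a gene was a member if a row of the array table named it alone, its symbol began with SNORD and a digit, and its mean log2 level over all 18 arrays was at least 4. These are 44 of the 157 C/D box genes that have such a row, in a table of 53617 rows. Every group carried the murine TLR5 transgene and grew in lysine and arginine labelled media, and no source used here says which array had which label. The mock groups received no flagellin, and the others received flagellin of E. coli Nissle (EcN) or of Salmonella Typhimurium SL1344 (ST). Harvest was at 60 or 120 min, and each of the 6 groups has 3 arrays, lettered A, B and C. The titles name the letters as biological repeats. They do not say that each came from its own culture, so the p-values measure the spread between these arrays, part of which may be technical. The description field of the ST arrays reads mock, against ST flagellin in their other fields, so that the titles decided the group.

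C/D box snoRNAs are short nuclear RNAs that bind fibrillarin and its partner proteins and guide 2′-O-methylation of ribosomal RNA, or of the spliceosomal RNA U6, by base pairing next to the modified site. Most human C/D box snoRNAs lie in introns of other genes, their hosts, and are released from the spliced and debranched intron. A few, such as the U3 copies and SNORD13, have promoters of their own and act in rRNA processing or acetylation. An array of this kind labels total RNA, so that a level may come from the mature snoRNA, from its host's unspliced intron or from both, and the rows cannot tell them apart. Likewise, fewer cells with a transcript and less of it per cell cannot be told apart.

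Some arrays stood apart from their group. NFKBIA, the feedback inhibitor that NF-kB induces, lay at 10.83 on mock 120 min array A. It was also high on the C arrays of all 4 flagellin groups, at 10.15 and 10.34 with EcN at 60 and 120 min and at 10.85 and 10.64 with ST. On the other 13 arrays it lay between 8.09 and 8.82. Mock 120 min array C, with NFKBIA at 8.22, was within that range, but the snoRNAs called at 60 min were high on it, as with SNORD105 at 8.26 beside 7.01 and 7.19 on mock arrays A and B of that time. Whether mock 120 min A or C carries the wrong label was not tested, and the labels were kept. The comparisons with mock at 120 min depend on both arrays. Mock at 120 over 60 min is given with and without each of them. Flagellin over mock at 120 min is given with and without mock 120 min C. For that comparison the fit that left out mock 120 min A alone called no member with either flagellin. The share of all genes called in that fit is not given here. With EcN that array is also left out together with the other arrays of high NFKBIA. Of the markers fixed for the cell line, NEFL, PAX2, VIM and NEFM all passed the filter on low values, with mean log2 levels of 10.38, 5.68, 7.91 and 2.04, the last below the array medians of 2.27 to 2.32. For leukocytes 3 of 5 markers passed it, for fibroblasts 3 of 5, for intestinal epithelium 4 of 5 and for hepatocytes 1 of 2. The leukocyte gene PTPRC and the hepatocyte gene ALB did not pass. Of those that passed, CD68 of the leukocyte list had a mean log2 level of 9.285. LGR5 and CDX2 of the intestinal list lay at 8.71 and 5.92, and LUM and COL1A1 of the fibroblast list at 5.53 and 4.68. The others of these lists lay between 2.38 (VIL1) and 3.03 (CSF1R). By their levels here, the lists did not set the line apart from other cell types.

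Levels on such an array depend on each row's own probes, so the levels that follow describe each gene and rank no gene's abundance against another's. The 10 highest mean log2 levels were those of SNORD13 (11.85), SNORD105B (11.29), SNORD41 (10.56), SNORD46 (9.68), SNORD4B (8.76), SNORD3C (8.74), SNORD15B (8.37), SNORD71 (7.99), SNORD89 (7.95) and SNORD88B (7.82). SNORD13 guides acetylation of the small-subunit rRNA, and SNORD3C is a copy of U3, which acts in pre-rRNA processing. At the threshold there was a gap. Just inside it lay SNORD11 (4.09), SNORD63 (4.12), SNORD59B (4.26), SNORD32B (4.52) and SNORD91B (4.55), and just outside it SNORD91A (3.32), SNORD13P2 (3.29), SNORD7 (3.27), SNORD92 (2.92) and SNORD99 (2.85). Of the 113 genes below the threshold, 98 had a mean under 2, and they include every SNORD115 and SNORD116 copy with such a row, the imprinted clusters best known from brain. All 44 members passed the filter on low values. A further 141 rows name a C/D box gene together with other genes, 71 of them at a mean of 4 or more, and these were left out of the members because a level there has no single gene.

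By known target, 9 members act on the small-subunit rRNA, 19 guide methylation of the large-subunit rRNAs, 3 guide U6, and 2 (SNORD13 and SNORD3C) are transcribed from promoters of their own. No target is given here for the other 11, which are SNORD105B, SNORD53, SNORD89, SNORD117, SNORD83A, SNORD32B, SNORD125, SNORD88A, SNORD88B, SNORD88C and SNORD13P3, an annotated pseudogene. The RefSeq gene table places 41 members inside the span of another gene, in 33 hosts, and 3 (SNORD13, SNORD3C and SNORD32B) in none. Of these hosts, 7 are ribosomal protein genes, which hold 9 members, and 4 are long non-coding RNAs (GAS5, ZFAS1, SNHG19 and SNHG25), which hold 6.

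Against mock at 60 min, 7 members passed the test with at least 1 flagellin, and all 7 were higher with flagellin. The 3 called with both flagellins were SNORD105, in an intron of the ribosome biogenesis gene PPAN, SNORD15B, in the ribosomal protein gene RPS3, and SNORD89, in the ubiquitin ligase gene RNF149. SNORD53 (host WDR43) and SNORD46 were called with EcN alone, and SNORD83A (host RPL3) and SNORD59B (host ATP5F1B) with ST alone. No snoRNA sequence is held by the reference tables used here. Because these members were called in the same comparisons, the starts of their hosts' transcripts are shown instead, each with 40 bases before the annotated start in lower case and the first 10 transcribed bases in capitals. They are RefSeq sequences of GRCh38.p14, read 5′ to 3′ on the host's strand.
RPS3, host of SNORD15B, chr11:75399478-75399527, plus strand: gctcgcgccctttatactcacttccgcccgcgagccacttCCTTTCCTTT
RPL3, host of SNORD83A, chr22:39319614-39319663, minus strand: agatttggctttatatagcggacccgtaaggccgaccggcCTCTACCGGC
PPAN, host of SNORD105 and SNORD105B, first of 2 listed starts, chr19:10106183-10106232, plus strand: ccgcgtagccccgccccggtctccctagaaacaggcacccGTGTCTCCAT
RNF149, host of SNORD89, chr2:101308692-101308741, minus strand: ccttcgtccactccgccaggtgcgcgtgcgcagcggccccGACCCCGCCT
WDR43, host of SNORD53, chr2:28894627-28894676, plus strand: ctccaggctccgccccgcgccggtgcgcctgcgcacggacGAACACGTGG

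Ribosomal protein transcripts classically begin with a C followed by a run of pyrimidines, the TOP element. A start of C within an unbroken run of at least 5 C or T letters was searched on the host's strand from the annotated first base. It was present in 4.07% of the 35116 promoters listed there. Among these 5 windows RPS3 had it, with 10 pyrimidines, RPL3 began with 4, and PPAN, RNF149 and WDR43 began with G. ATP5F1B, the host of SNORD59B, is named only.

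**Figure D1:**
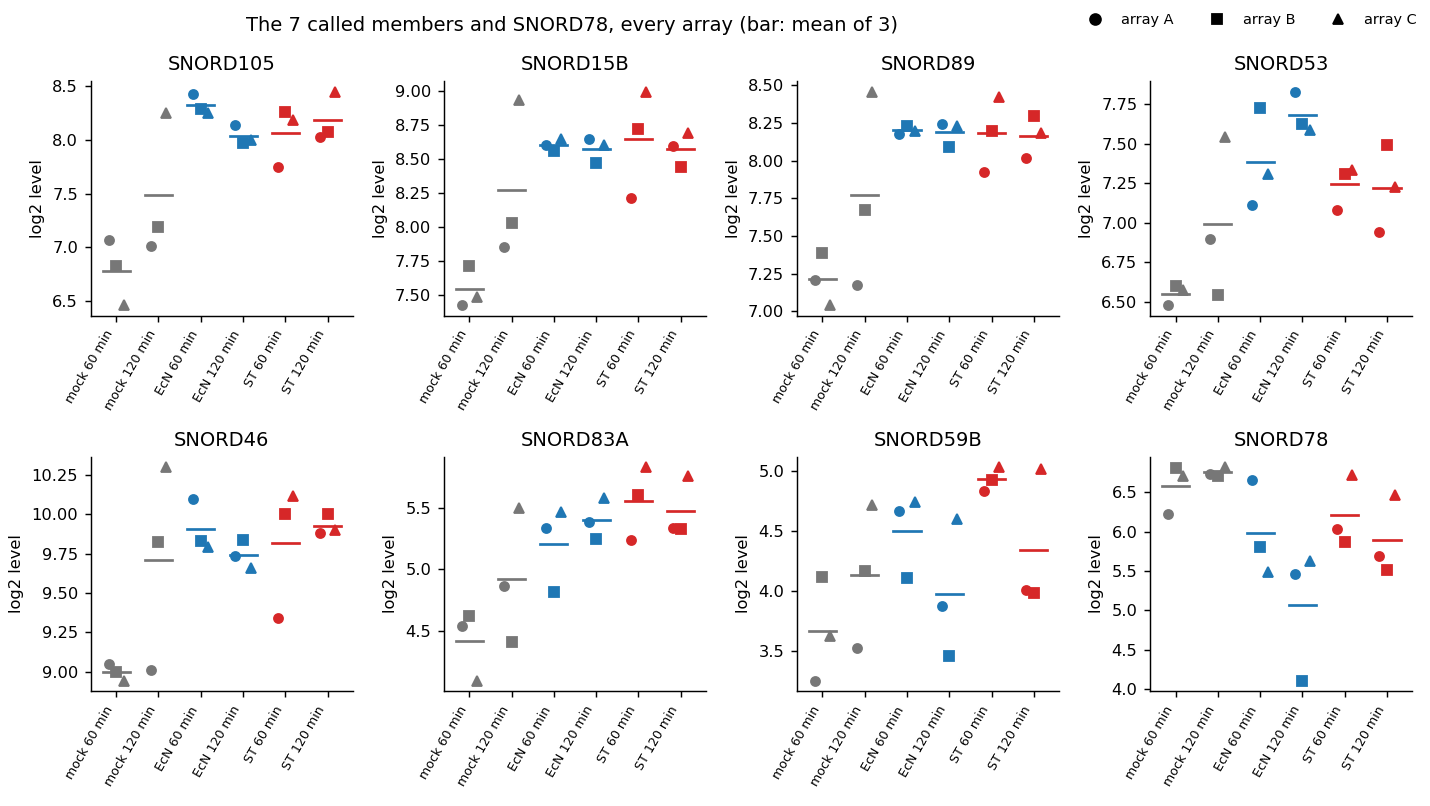
Log2 level (vertical axis of each panel, not starting at 0) of the 7 members called at 60 min and of SNORD78 on each of the 18 arrays, by group (grey mock, blue EcN, red ST; circle, square and triangle are arrays A, B and C; bars are means of 3). For SNORD105 the 3 mock arrays at 60 min lie between 6.46 and 7.06 and every flagellin array lies at 7.75 or above, as does mock 120 min array C at 8.26.

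SNORD105, which guides methylation of the small-subunit rRNA, had log2 levels of 7.06, 6.82 and 6.46 on the mock 60 min arrays A, B and C. With EcN at 60 min they were 8.43, 8.29 and 8.25, and with ST 7.75, 8.27 and 8.19. Neither flagellin group overlapped mock. The log2 fold change was 1.54 ± 0.25 (SE) with EcN, or 2.91-fold (adjusted p = 0.0159), and 1.29 ± 0.25 with ST, or 2.44-fold (adjusted p = 0.0145), by limma with Benjamini-Hochberg adjustment. At 120 min, mock arrays A and B stayed low, at 7.01 and 7.19, and mock array C lay at 8.26, inside the flagellin arrays, which ran from 7.97 to 8.45.

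SNORD15B, a guide for the large-subunit rRNA, lay at 7.43, 7.71 and 7.48 in mock at 60 min. It lay at 8.61, 8.56 and 8.65 with EcN and at 8.21, 8.72 and 8.99 with ST, again with no overlap. It was 2.09-fold higher with EcN (log2 1.06 ± 0.22, adjusted p = 0.0197) and 2.15-fold higher with ST (1.10 ± 0.22, adjusted p = 0.016). Its 3 mock arrays at 120 min were at 7.85, 8.03 and 8.93.

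SNORD89 lay at 7.21, 7.38 and 7.04 in mock at 60 min, at 8.18, 8.23 and 8.20 with EcN and at 7.93, 8.20 and 8.42 with ST. These are differences of 0.99 ± 0.22 (adjusted p = 0.0241) and 0.97 ± 0.22 (adjusted p = 0.0236) on the log2 scale. The mock arrays at 120 min were at 7.17, 7.67 and 8.46. For all 3 of these members the low arrays are thus the 3 mock arrays at 60 min and mock arrays A and B at 120 min, while mock 120 min C is as high as the flagellin arrays.

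SNORD53 rose with EcN from 6.48, 6.60 and 6.57 to 7.11, 7.72 and 7.31, a log2 fold change of 0.83 ± 0.21 (adjusted p = 0.0322). With ST it lay at 7.08, 7.31 and 7.33, a difference of 0.69 ± 0.21 that missed the threshold (adjusted p = 0.0625). SNORD46, a large-subunit guide, rose with EcN from levels between 8.94 and 9.05 to 10.10, 9.83 and 9.79, by 0.91 ± 0.24 (adjusted p = 0.0365). With ST it was at 9.34, 10.00 and 10.11 (0.82 ± 0.24, adjusted p = 0.0563). Every one of these arrays lay above the 3 mock arrays of that time.

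SNORD83A rose with ST from 4.54, 4.62 and 4.10 to 5.24, 5.60 and 5.83, by 1.14 ± 0.25 (adjusted p = 0.0198). With EcN its levels were 5.34, 4.82 and 5.46 (0.79 ± 0.25, adjusted p = 0.0628). SNORD59B, a small-subunit guide, rose with ST from 3.25, 4.12 and 3.63 to 4.84, 4.92 and 5.03, by 1.26 ± 0.34 (adjusted p = 0.0429). With EcN it lay at 4.67, 4.11 and 4.74, which overlapped mock (0.84 ± 0.34, adjusted p = 0.141). ST over EcN was tested directly, and none of these 4 members passed that test.

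For EcN at 60 min, 5 of 44 members were called higher, beside 3.08% of all 16111 genes tested, and 0 of 44 were called lower, beside 3.37%. For ST, 5 of 44 were called higher, beside 2.23% of all genes, and 0 lower, beside 3.03%. At an unadjusted p under 0.05 the members numbered 14 on the higher side and 0 on the lower side with EcN (all genes 12.7% and 12.2%), and 13 higher and 1 lower with ST (10.2% and 12.3%). The 1 lower was SNORD11. The members' median log2 fold change was 0.25 with EcN and 0.28 with ST, beside 0.01 and 0.00 over all genes. With EcN 28 members lay above 0 and 16 below, and with ST 29 and 15. Both comparisons share the same 3 mock arrays, so a member that is low there is high in both.

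Each of these counts rested on few arrays, and the share of all genes called, 6.45% with EcN and 5.26% with ST, changed with them. For EcN, 0 members were called without mock 60 min array B (0.0434% of all genes), without mock 60 min C (0.0186%) or without EcN 60 min B (0%). It was 1 without EcN 60 min C (0.503%), 2 without EcN 60 min A (1.5%) and 3 without mock 60 min A (4.16%). For ST, 0 were called without mock 60 min C (0.49%) or without ST 60 min C (0.826%), 1 without ST 60 min B (1.48%), 2 without mock 60 min B (0.782%) and 3 without mock 60 min A (3.28%). Without mock 120 min C, which enters through the shared spread alone, the ST count was 8, and the share of all genes called was 8.45%. Without the 5 arrays with high NFKBIA, 4 were called with EcN (6.16% of all genes) and 2 with ST (2.08%), and SNORD105 was among both. The log2 fold change of SNORD105 stayed between 1.38 and 1.68 with EcN and between 1.07 and 1.45 with ST under all 31 alternatives. It was still called in 28 of 31 with each, the most of any call. SNORD59B with ST was kept least, in 18 of 30 alternatives and in 8 of 18 fits with 1 array left out. The other calls were kept in 24 to 26 of 31. These counts include alternatives that only moved the membership threshold, to 3 or 5, and reused the same fit. No call of a member could be lost in them, so they did not test the calls.

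**Figure D2:**
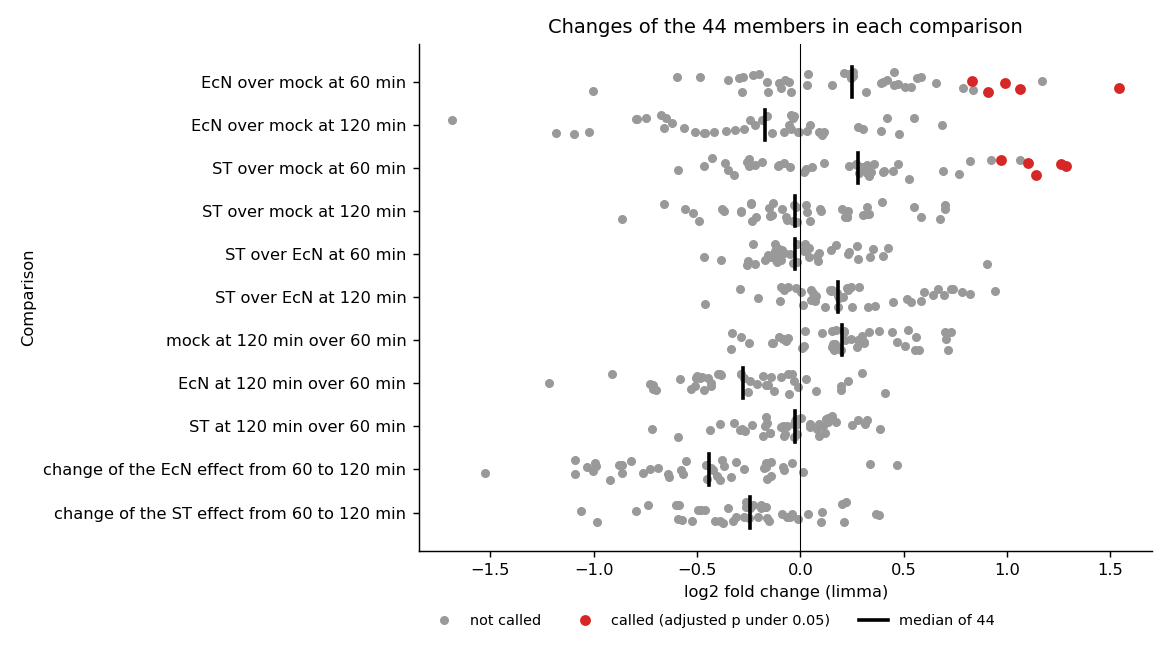
Log2 fold change (horizontal axis) of each of the 44 members in each of the 11 comparisons, with called members in red, others in grey and the median as a black bar. Called members appear in the 2 comparisons with mock at 60 min and nowhere else, and the medians run from -0.44 to 0.28.

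Among the roles, the median log2 fold change at 60 min was 0.42 with EcN and 0.32 with ST for the 9 members that act on the small-subunit rRNA. It was 0.23 and 0.03 for the 19 guides of the large-subunit rRNAs, 0.04 and 0.06 for the 3 guides of U6, and 0.26 and 0.34 for the 11 with no target given. The called members came from 3 of these groups: SNORD105 and SNORD59B, SNORD15B and SNORD46, and SNORD53, SNORD89 and SNORD83A. SNORD8, SNORD67 and SNORD94, the guides of U6, had log2 fold changes of 0.45 ± 0.30, 0.03 ± 0.17 and 0.04 ± 0.14 with EcN, and none passed the test. SNORD17 and SNORD66, which guide the large- and small-subunit rRNA, differed by -0.20 and -0.28 with EcN and by -0.32 and -0.18 with ST. SNORD94 had the narrowest spread of all members over the 18 arrays (SD 0.16, from 4.97 to 5.57).

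The members with promoters of their own did not pass the test in any comparison with all arrays and the settings used throughout. SNORD13 lay at 11.51, 11.63 and 11.63 in mock at 60 min and at 11.97, 12.07 and 11.92 with EcN, a difference of 0.40 ± 0.13 (adjusted p = 0.0756) in which the groups did not overlap. It was called there with a stricter filter at a mean log2 of 4 (adjusted p = 0.0449), with limma's trend and robust settings (0.0308) and with array weights (0.0406). With ST it lay at 11.50, 11.97 and 12.12. SNORD3C lay at 9.14, 9.18 and 9.002 in mock at 60 min and at 8.63, 8.82 and 8.84 with EcN, a difference of -0.35, and of 31 alternatives only the one without mock 120 min C called it, lower with EcN at 120 min. SNORD14A and SNORD14E are copies of U14, which acts in rRNA processing and guides the small-subunit rRNA. SNORD14A differed by 0.66 ± 0.26 with EcN (adjusted p = 0.132) and by 0.40 ± 0.26 with ST (adjusted p = 0.389). SNORD14E differed by 0.58 ± 0.32 with EcN (adjusted p = 0.267) and by 0.92 ± 0.32 with ST (adjusted p = 0.0962).

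At 120 min no member was called with either flagellin, by limma with Benjamini-Hochberg adjustment. Over all genes 0.0621% were called with EcN and 0.559% with ST. At an unadjusted p under 0.05, EcN had 3 higher members and 13 lower ones (all genes 8.24% and 8.28%), and 5 higher and 4 lower with ST (8.99% and 8.57%). The median log2 fold change of the members was -0.17 with EcN, with 32 of 44 below 0, and -0.02 with ST, with 24 below 0.

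SNORD78, a large-subunit guide held by the growth-arrest RNA GAS5, had the smallest p with EcN. It lay at 6.72, 6.71 and 6.81 in mock at 120 min and at 5.46, 4.11 and 5.63 with EcN, so that the groups did not overlap. The log2 fold change was -1.68 ± 0.37 (adjusted p = 0.0756). With ST it lay at 5.69, 5.51 and 6.46 (-0.86 ± 0.37, adjusted p = 0.245). Its lowest array of all 18 was EcN 120 min B.

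SNORD12, a large-subunit guide in ZFAS1, lay at 6.33, 6.21 and 5.996 in mock at 120 min and at 5.01, 5.05 and 5.41 with EcN (-1.02 ± 0.26, adjusted p = 0.0885). SNORD13P3 lay at 6.53, 6.33 and 5.58 in mock and at 4.86, 5.12 and 5.17 with EcN (-1.09 ± 0.25, adjusted p = 0.0757). SNORD4B, a small-subunit guide, differed by -0.75 ± 0.23 (adjusted p = 0.127), and SNORD53 by 0.69 ± 0.21 the other way (adjusted p = 0.125). With ST the 5 smallest p were those of SNORD104 (0.70 ± 0.23, adjusted p = 0.137), SNORD105, SNORD78, SNORD42A and SNORD13P3, and the adjusted p of the other 4 ran from 0.167 to 0.256.

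The result at 120 min turned on mock array C. Without it, 9 members were called with EcN and 4 with ST, while the share of all genes called grew to 7.31% and 4.44%. With EcN the members called higher were SNORD53 (0.96 ± 0.18, adjusted p = 0.0098), SNORD105 (0.94 ± 0.18, adjusted p = 0.0107), SNORD89 (0.76 ± 0.16, adjusted p = 0.0137) and SNORD15B (0.63 ± 0.17, adjusted p = 0.0397). Those called lower were SNORD13P3 (-1.38 ± 0.24, adjusted p = 0.00644), SNORD78 (-1.65 ± 0.43, adjusted p = 0.0339), SNORD12 (-1.11 ± 0.29, adjusted p = 0.0352), SNORD4B (-0.89 ± 0.25, adjusted p = 0.0463) and SNORD3C (-0.74 ± 0.21, adjusted p = 0.048). With ST, SNORD105 (1.08 ± 0.18), SNORD104 (0.97 ± 0.22), SNORD89 (0.74 ± 0.16) and SNORD15B (0.64 ± 0.17) were called higher and none lower. Mock 120 min then has 2 arrays. Mock 120 min C was singled out because the snoRNAs called at 60 min were high on it. Calls of those members as higher without it follow in part from that choice and are no separate support. Leaving out mock 120 min A instead called no member with either flagellin. With all arrays in the fit, limma's trend and robust settings called SNORD78, SNORD12 and SNORD13P3 lower with EcN, as did a stricter filter at a mean log2 of 4. Array weights and the letters as a block, also with all arrays, called none of them. The share of all genes called under these settings is not given here.

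**Figure D3:**
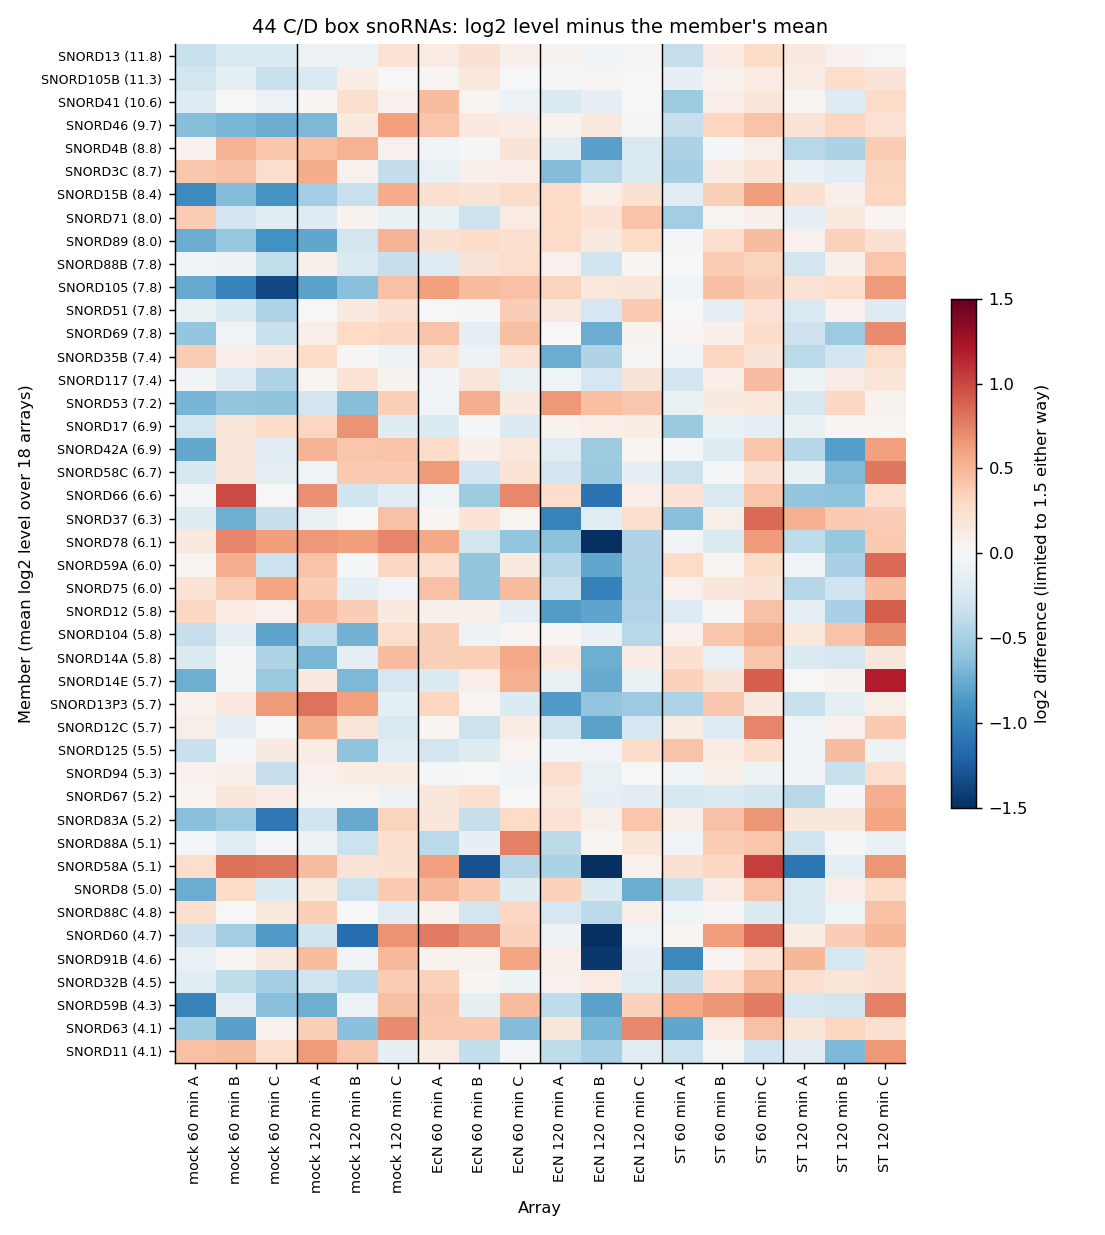
Log2 level of each member minus its own mean over 18 arrays, in colour (red higher, blue lower, limited to 1.5 either way), for the 44 members in order of mean level (rows) and the 18 arrays by group (columns). SNORD105, SNORD15B and SNORD89 are blue on the 3 mock 60 min arrays and on mock 120 min A and B, and 13 members have their lowest level on EcN 120 min B.

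ST over EcN called no member and no gene at either time (0% and 0% of all genes). At 60 min the unadjusted p was under 0.05 for 1 higher and 1 lower member (all genes 4.16% and 5.03%), namely SNORD125 (0.40 ± 0.19) and SNORD67 (-0.38 ± 0.17). At 120 min 9 were higher and 1 lower (5.3% and 6.38%), and 36 of 44 members lay above 0 with a median of 0.19. The smallest p was that of SNORD12 (0.78 ± 0.26, adjusted p = 0.275), followed by SNORD104 (0.60), SNORD12C (0.58), SNORD37 (0.74) and SNORD14E (0.73). Over all 31 alternatives the median lay between 0.04 and 0.30.

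Between 60 and 120 min no member was called in mock, with EcN or with ST, and no gene was (0% in each). In mock the unadjusted p was under 0.05 for 7 higher and 0 lower members (all genes 5.96% and 6.13%), and the smallest p were those of SNORD15B (0.73 ± 0.22), SNORD46 (0.71 ± 0.24), SNORD105 (0.71 ± 0.25), SNORD89 (0.56 ± 0.22) and SNORD42A (0.70 ± 0.29). Without mock 120 min array A, the one with high NFKBIA, 4 members were called higher in mock at 120 min: SNORD46 (1.06 ± 0.19), SNORD105 (0.94 ± 0.25), SNORD15B (0.94 ± 0.23) and SNORD89 (0.85 ± 0.19). The share of all genes called then rose from 0% to 6.08%, with 3.52% higher. Without the 5 arrays with high NFKBIA it was 3 members, beside 5.02% of all genes, and SNORD105 was not among them. Without mock 120 min C it was 0.

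With EcN 1 member was higher at 120 min and 7 were lower (3.79% and 4.16%), and the median was -0.28 with 37 of 44 below 0. SNORD60, a large-subunit guide in SNHG19, went from 5.47, 5.38 and 5.04 to 4.61, 2.999 and 4.62 (-1.22 ± 0.42, adjusted p = 0.492). SNORD13P3 (-0.71), SNORD12 (-0.70), SNORD75 (-0.71) and SNORD35B (-0.50) followed. With ST 0 were higher and 0 lower (2.05% and 2.75%), and the median was -0.03. The 5 smallest p there were those of SNORD59B, SNORD105B, SNORD67, SNORD88A and SNORD35B, each with an adjusted p of 0.99.

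The change of a flagellin's effect from 60 to 120 min called no member and no gene (0% for EcN and 0% for ST). For EcN the unadjusted p was under 0.05 for 0 higher and 9 lower members (5.95% and 6.07% of all genes), 41 of 44 lay below 0 and the median was -0.44. For ST it was 0 higher and 4 lower (5.46% and 5.29%), with 36 below 0 and a median of -0.25. The smallest p for EcN were those of SNORD105 (-0.99 ± 0.35, adjusted p = 0.305), SNORD42A (-1.09), SNORD69 (-1.03), SNORD60 (-1.53) and SNORD46 (-0.88), and for ST those of SNORD15B (-0.80 ± 0.31, adjusted p = 0.417), SNORD42A (-0.98), SNORD51 (-0.53), SNORD59B (-1.06) and SNORD69 (-0.74).

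Likeness over the arrays was followed from SNORD105 and SNORD78, chosen for their large changes. At r of 0.7 or more, 9 members were like SNORD105 and 5 like SNORD78, and the other 28 of 42 were below it with both. As a description over 18 arrays that share 1 normalization, SNORD105 correlated with SNORD89 at r = 0.94, SNORD15B at 0.93, SNORD46 at 0.87, SNORD83A at 0.86, SNORD32B at 0.83, SNORD53 at 0.79, SNORD104 at 0.79, SNORD105B at 0.77 and SNORD13 at 0.74. SNORD78 correlated with SNORD58A at 0.86, SNORD4B at 0.79, SNORD12 at 0.78, SNORD75 at 0.73 and SNORD59A at 0.70. Between SNORD105 and SNORD78 the value was -0.37. Over all 946 pairs of members the median was 0.24, and 684 pairs lay above 0.

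SNORD58A, a large-subunit guide in RPL17, had the widest spread of all (SD 0.84), from 2.84 on EcN 120 min B to 6.13 on ST 60 min C. It was followed by SNORD78 (0.71), SNORD60 (0.71), SNORD105 (0.62) and SNORD59B (0.57). The narrowest after SNORD94 were SNORD105B (0.16), SNORD13 (0.19), SNORD117 (0.22) and SNORD41 (0.22). SNORD117 is read from 8 rows, of which 7 hold the same values, and SNORD32B has 7 rows of which 6 do, so these rows were counted once. EcN 120 min B held the lowest level of 13 members and mock 60 min C that of 11, while ST 120 min C held the highest of 12 and ST 60 min C that of 10.

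Members of 1 host did not always change alike. In PPAN, SNORD105 was higher by 1.54 ± 0.25 with EcN at 60 min and SNORD105B by 0.32 ± 0.10 (adjusted p = 0.0704), although both were above mock on every array. In ATP5F1B, SNORD59B differed by 1.26 with ST at 60 min and SNORD59A by 0.11. In RPL17, SNORD58A differed by -1.005 with EcN at 60 min and SNORD58C by 0.26. GAS5 holds SNORD78 and SNORD75, which differed by -1.68 and -0.66 with EcN at 120 min, and ZFAS1 holds SNORD12 and SNORD12C, which differed by -1.02 and -0.62. In RPL23A, SNORD4B and SNORD42A differed by -0.75 and -0.67 there, and by -0.30 and 0.42 at 60 min. SNORD88A, SNORD88B and SNORD88C of C19orf48P stayed between -0.10 and 0.26 with EcN at 60 min. The difference between members of a host was not tested.

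Hosts with a row of their own could be set beside 25 members (20 hosts). With EcN at 60 min the hosts' log2 fold changes ran from -0.42 to 0.27 and those of their members from -0.60 to 1.17. RPS3 differed by 0.12 ± 0.11 (adjusted p = 0.563) where SNORD15B rose by 1.06, and WDR43 by -0.11 ± 0.16 where SNORD53 rose by 0.83. With ST, RPS3 differed by 0.14 ± 0.11 and ATP5F1B by 0.06 ± 0.08 where SNORD59B rose by 1.26. The hosts called were AP1G1, the adaptor protein gene that holds SNORD71, lower with EcN at 60 min (-0.42 ± 0.10, adjusted p = 0.0258), and TSR1, a ribosome biogenesis gene that holds SNORD91B, higher with ST at 60 min (0.44 ± 0.09, adjusted p = 0.0176) and at 120 min (0.43 ± 0.09, adjusted p = 0.0464). SNORD71 (-0.08 ± 0.18) and SNORD91B (-0.26 ± 0.35 and -0.15 ± 0.35) did not pass the test in those comparisons. At 120 min with EcN, GAS5 differed by -0.41 ± 0.20 and ZFAS1 by -0.49 ± 0.16 (adjusted p = 0.311 and 0.148), in the direction of their members. Of all 25 members, 15 had the sign of their host there (r = 0.38), and the others had the opposite sign. Among the latter, SNORD91B differed by -0.79 and its host TSR1 by 0.37.

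**Figure D4:**
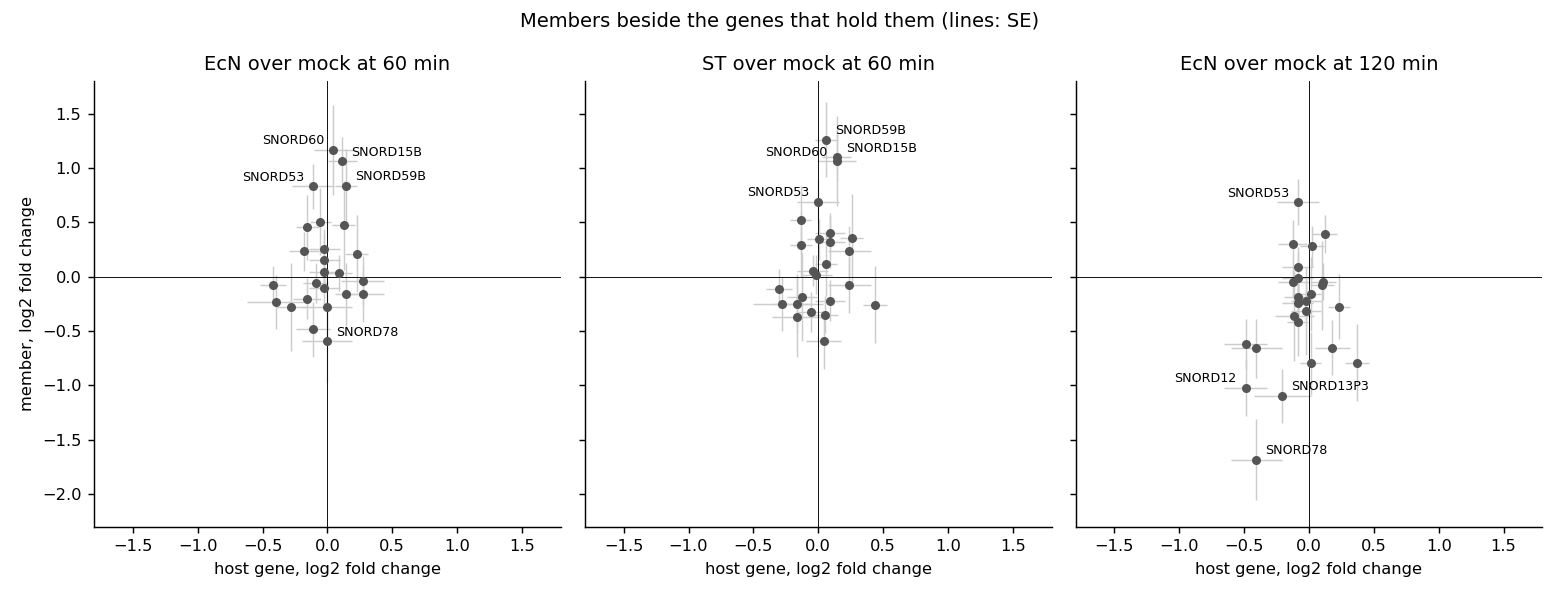
Log2 fold change of 25 members (vertical axis) against that of their 20 measured hosts (horizontal axis), in 3 comparisons with mock, with SE as grey lines and some members named. Hosts lie between -0.49 and 0.44 in all 3 panels, while members run from -1.68 to 1.26.

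Few genes for proteins that make, process and bind these RNAs were called against mock. Of the box C/D core proteins, 3 of 4 were measured (FBL, the methyltransferase fibrillarin, NOP58 and SNU13), and none was called against mock at either time. Of 8 assembly factors 1 was called: ZNHIT3 was lower with ST at 60 min (-0.51 ± 0.12, adjusted p = 0.0255). None of 13 genes for snoRNA processing and turnover and none of 5 measured H/ACA core proteins was called. Among 11 measured non-coding snoRNA hosts SNHG8 was higher with EcN at 60 min (0.62 ± 0.14, adjusted p = 0.025).

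Genes of other RNA classes were called at 60 min too, to be read beside the 3.08% of all genes called higher and 3.37% lower with EcN, and 2.23% and 3.03% with ST. Of 34 H/ACA snoRNAs at a mean log2 of 4 or more, 3 were called higher with EcN at 60 min and 5 higher and 1 lower with ST, and of 10 small Cajal body RNAs 2 and 1 were higher. Of 7 spliceosomal RNAs 1 was higher and 1 lower with ST, and of 52 ribosomal protein genes 5 were higher with EcN and 2 with ST, with none lower. Of 68 microRNA precursors 7 were called lower with EcN, and 5 lower and 1 higher with ST. The median log2 fold changes with EcN and ST were 0.05 and 0.03 for H/ACA snoRNAs, 0.21 and 0.08 for Cajal body RNAs, 0.01 and 0.04 for ribosomal protein genes and -0.17 and -0.16 for microRNA precursors. The housekeeping gene B2M was higher with both flagellins at 60 min (0.53 ± 0.11 and 0.39 ± 0.11). CD68, on the leukocyte list, was higher with EcN at 60 min (0.39 ± 0.11) and LGR5, on the intestinal list, lower (-0.59 ± 0.16), while LUM, on the fibroblast list, was lower with ST at 120 min (-0.997 ± 0.20). Per array, the median distance of the listed genes from their own means lay between -0.39 and 0.33 for leukocyte markers, -0.31 and 0.30 for fibroblast markers and -0.25 and 0.24 for intestinal markers.

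The median distance of the 44 members from their means was lowest on EcN 120 min B (-0.34) and highest on ST 60 min C (0.35) and ST 120 min C (0.33). On the same 3 arrays it was -0.16, 0.12 and 0.20 for H/ACA snoRNAs, 0.01, 0.25 and 0.17 for Cajal body RNAs, and -0.17, 0.09 and 0.14 for 52 ribosomal protein genes. It was -0.25, 0.06 and 0.19 for 7 housekeeping genes and -0.05, 0.06 and 0.02 for microRNA precursors. Spliceosomal RNAs lay at -0.19, -0.01 and 0.07 on these 3 arrays. ACTB also had its lowest level, 6.04, on EcN 120 min B. On mock 60 min A and C, where the members' medians were -0.18 and -0.18, Cajal body RNAs were at -0.22 and -0.31, H/ACA snoRNAs at 0.10 and -0.13 and ribosomal protein genes at -0.08 and -0.04. Non-coding snoRNA hosts were there at -0.15 and -0.08, housekeeping genes at 0.07 and 0.11 and microRNA precursors at 0.07 and 0.02. On mock 120 min C the members were at 0.23, Cajal body RNAs at 0.05, H/ACA snoRNAs at 0.02, ribosomal protein genes at 0.03, microRNA precursors at -0.10 and housekeeping genes at -0.01. Over the 18 arrays the members' medians correlated with those of ribosomal protein genes at r = 0.88 and of non-coding snoRNA hosts at 0.74, as a description. For Cajal body RNAs r was 0.70, for H/ACA snoRNAs 0.62 and for housekeeping genes 0.36. It was 0.205 for spliceosomal RNAs and -0.06 for microRNA precursors. No source used here gives an RNA integrity value. The part of RNA quality, of small RNA recovery and of the array in the members' differences was not tested.

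**Figure D5:**
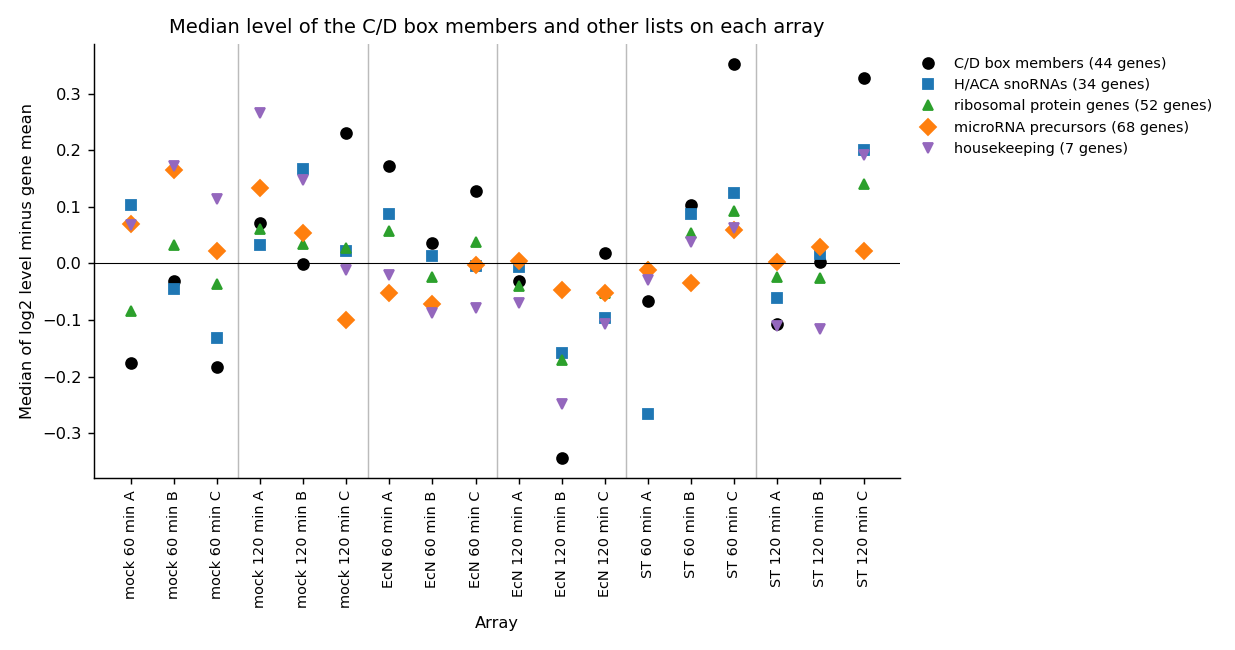
Median, over the genes of each list, of the log2 level minus the gene's own mean (vertical axis) on each of the 18 arrays (horizontal axis, grouped by treatment and time). The C/D box members (black) run from -0.34 on EcN 120 min B to 0.35 on ST 60 min C, a wider range than the ribosomal protein genes (green, -0.17 to 0.14).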

How the data were processed

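The 18 arrays are Affymetrix Human Gene 2.1 ST, per the series' design text. The deposited values are log2 levels. The authors made them by RMA with the R package oligo (version 1.30.0), per the submitters' processing notes. The sources used here name no build and no annotation version. They were used as deposited. Rows were named through the platform annotation, with 655 symbols brought up to date through RefSeq's gene table (GRCh38.p14), which also gave hosts by span. That table holds no strand, so the planned match of strands was not made.

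A gene was kept where 3 or more of the 18 arrays placed it over the array's median, with the highest mean row per gene, which left 16111. Differences were tested, two-sided, with limma 3.58.1 in R 4.3.3 (lmFit on 6 group means over all 18 arrays, eBayes with 12 residual and 4.20 prior degrees of freedom) in 11 comparisons, with Benjamini-Hochberg adjustment over all genes and calls at an adjusted p under 0.05. The fit was also run on simulated data with independent noise for each gene and array. Those data hold no shifts shared by a whole array, so that the run says nothing about such shifts here. The 3 arrays per group limit the precision.

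The members and gene lists were chosen with earlier results of these data known. In each comparison the named members were up to 8 called on each side, or the 5 with the smallest p where fewer than 3 were called. To these came the 10 with the highest means, 5 on each side of the membership threshold, 5 with the highest and 5 with the lowest SD, and members with known processing roles. Host genes, NFKBIA and called genes of the lists were also named. SNORD8, SNORD17, SNORD66, SNORD58C, SNORD59A, SNORD88C and any other member named for a role, a host or a likeness were chosen after their values were seen. Alternatives were another centring, normalization, filter, moderation, weighting, membership threshold or set of arrays, each array left out in turn, and a replicate block.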

Additional observations from a re-analysis of the deposited data

Results flagged for a closer look

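Outside the members, 87 rows that name a C/D box gene together with other genes passed the filter. In a fit over 30449 rows, 1 of them was called: a row that names SNORD20 and SNORD82, 2 snoRNAs of the nucleolin gene, was higher with ST at 60 min by 0.83 on the log2 scale (SE 0.21, adjusted p = 0.0463 by limma). It lay at 3.05, 3.20 and 3.63 in mock and at 3.83, 4.44 and 4.09 with ST, and the groups did not overlap. It was pointed out because it lies in data that the comparisons of the members leave out. Which of its genes the row measures cannot be told from the table.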

How the results depend on the processing

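The counts at 60 min, 5 members with EcN and 5 with ST, were each 8 with the stricter filter, 8 with trend and robust settings and 8 with array weights, and with only the groups compared ST gave 8, 7 higher and 1 lower (SNORD11, -0.59, adjusted p = 0.0477). Without all arrays lettered C they were 1 and 0, and without the 5 arrays with high NFKBIA ST gave 2. Leaving out 1 array at a time gave 0 to 6 with EcN and 0 to 8 with ST. At 120 min, with 0 called, EcN gave 3 with the stricter filter, 3 with trend and robust settings, 3 without arrays lettered C and 1 without the high NFKBIA arrays, and 0 to 9 with 1 array left out; ST gave 0 to 4. Mock at 120 over 60 min gave 3 without the high NFKBIA arrays and 0 to 4 with 1 left out, and the change of the EcN effect 1 and 0 to 1. The causes were not tested beyond fewer arrays or genes in a fit. The share of all genes called also differed between fits. Without mock 120 min C it was 10.0% with EcN and 8.45% with ST at 60 min. A count given here without that share is therefore not a result about the members alone. No direction of a called member reversed. The letters were not taken as pairs, since not every same-letter pair correlated over 0.1: deviations had a median r of 0.04 over 45 same-letter pairs, 10 over 0.1, and of -0.02 over 90 other pairs, 14 over 0.1. NFKBIA was nevertheless high on the C array of each flagellin group. With the letter as a block 5 members were called with EcN and 5 with ST at 60 min and 0 elsewhere.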
